A study of Homo sapiens with 12 samples.

Results

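This account concerns 8 genes of epidermal growth factor receptor (EGFR) signalling in the human line MiaPaCa-2, long established from a cancer of the pancreas. They are the ligands HBEGF, AREG, EREG, TGFA and BTC and the receptors EGFR, ERBB2 and ERBB3. The genes were found by symbol among the 70116 genes of the count table, and all 8 had a row. HBEGF was selected on its measured log2 fold change, which was among the largest against the control in these libraries, so its values are given as a description and without a test. The other 7 genes were taken as members of the same ligand and receptor family. The cells had been transfected with small interfering RNA (siRNA), and RNA with a poly(A) tail was sequenced in 12 libraries of 4 groups with 3 replicates each. The control group was transfected with siControl. The other groups received siSLC25A1, siACLY or siACO1, against the mitochondrial citrate carrier, ATP citrate lyase and cytosolic aconitase respectively. All 4 groups thus share the cell line and a transfection. The labels give neither the time after transfection, nor the medium at harvest, nor the number of siRNAs per target, and they do not say whether replicates were separate cultures. If they were not, the p-values measure only the spread between these libraries.

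The ligands of this family are made as proteins anchored in the cell membrane. Metalloproteases of the ADAM family cut them loose, after which they bind EGFR on the same or a neighbouring cell. HBEGF, EREG and BTC can bind ERBB4 as well, while AREG and TGFA bind EGFR. Bound receptors pair with each other, ERBB2 serving as a partner without a ligand of its own and ERBB3 as a partner with a weak kinase, and they signal through RAS, the MAP kinases and phosphatidylinositol 3-kinase. The same cascade induces several of its own ligands and inhibitors, and in the pancreas EGFR is known for its part in the early growth of tumours.

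Library totals ran from 24159424 to 43792811 counts, and levels are given as CPM, the counts scaled to library size, with factors from the trimmed mean of M values (TMM). Each siRNA lowered its own target: SLC25A1 was at 8.78% of its control level in siSLC25A1, ACLY at 7.25% in siACLY and ACO1 at 3.75% in siACO1. The keratins KRT8 and KRT18 of carcinoma cells were high in the controls, at 2278 and 1325 CPM, as was the mesenchymal filament gene VIM at 3561 CPM. KRT19 stood at 88.5 and the mucin gene MUC1 at 20.5 CPM, but the epithelial genes EPCAM and CDH1 had 0 counts in every siControl library and at most 2 elsewhere. Of 12 markers of immune, endothelial, fibroblast, acinar and islet cells, 7 had no count in any library, and the sum of the 12 lay between 0.362 and 1.09 CPM in every library. Replicate 3 of siACO1 stood apart. Its median absolute deviation from its fellow replicates was 0.107 on the log2 scale, against 0.0472 to 0.0724 in the other 11 libraries, and across 9968 genes its deviation had a Spearman correlation of -0.523 with exon length, a description over genes that share this library. Log2 fold changes of siACO1 against siControl are therefore given with and without it.

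The ligand genes AREG, EREG and BTC lie together on chromosome 4, and HBEGF lies on chromosome 5. In GENCODE release 29 (GRCh38) HBEGF (ENSG00000113070.8) spans chr5:140332843-140346631 on the minus strand. EREG (ENSG00000124882.4) spans chr4:74365143-74388751 and AREG (ENSG00000109321.11) spans chr4:74445134-74455009, both on the plus strand. BTC (ENSG00000174808.12) spans chr4:74744759-74794686 on the minus strand. The 300 bases around the start of these 4 genes are shown because HBEGF, AREG and EREG were higher in all 3 knockdowns while BTC was not. They are RefSeq sequences on GRCh38.p14, from 250 bases before the start to 50 after it, read along the gene, at chr5:140346554-140346853 (minus strand), chr4:74444886-74445185 (plus), chr4:74364895-74365194 (plus) and chr4:74794474-74794773 (minus). Capitals mark matches on either strand to AP-1 (TGANTCA), CRE (TGACGTCA), the SP1 box (GGGCGG), EGR1 (GCGNGGGCG) and the TATA box (TATAAA).
HBEGF: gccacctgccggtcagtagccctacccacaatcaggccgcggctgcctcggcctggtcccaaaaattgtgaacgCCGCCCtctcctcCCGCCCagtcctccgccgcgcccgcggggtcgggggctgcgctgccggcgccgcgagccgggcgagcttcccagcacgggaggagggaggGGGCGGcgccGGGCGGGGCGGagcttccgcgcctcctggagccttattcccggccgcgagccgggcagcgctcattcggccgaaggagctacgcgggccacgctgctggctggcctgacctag
AREG: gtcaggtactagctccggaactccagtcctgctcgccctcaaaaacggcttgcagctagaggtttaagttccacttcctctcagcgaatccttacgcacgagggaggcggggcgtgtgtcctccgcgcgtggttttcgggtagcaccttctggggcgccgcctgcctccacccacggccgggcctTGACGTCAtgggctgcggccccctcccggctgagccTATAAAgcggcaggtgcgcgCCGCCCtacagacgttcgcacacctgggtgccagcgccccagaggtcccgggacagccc
EREG: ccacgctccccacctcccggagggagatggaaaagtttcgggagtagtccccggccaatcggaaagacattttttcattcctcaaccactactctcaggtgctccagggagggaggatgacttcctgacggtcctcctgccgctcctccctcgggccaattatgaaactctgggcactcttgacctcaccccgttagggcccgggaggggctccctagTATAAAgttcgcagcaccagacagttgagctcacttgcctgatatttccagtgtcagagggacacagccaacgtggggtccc
BTC: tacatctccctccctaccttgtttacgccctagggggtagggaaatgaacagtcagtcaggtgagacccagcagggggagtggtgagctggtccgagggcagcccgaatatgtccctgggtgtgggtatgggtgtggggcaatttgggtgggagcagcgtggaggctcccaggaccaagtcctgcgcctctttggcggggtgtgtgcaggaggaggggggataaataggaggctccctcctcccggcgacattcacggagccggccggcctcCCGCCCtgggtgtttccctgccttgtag

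HBEGF held 5 SP1 boxes, of which the last 2 overlap by 1 base, and no TATA box, and 75% of its window was G or C. AREG held the CRE palindrome 65 bases before the start (position -65), a TATA box at -29 and 1 SP1 box at -9. EREG held a TATA box at -32 and BTC 1 SP1 box after the start, at position 23. Among all 35116 RefSeq windows of this length, 45% held an SP1 box, 11.5% a TATA box, 1.85% the CRE palindrome, 7.71% AP-1 and 9.43% EGR1. The windows were also searched for ETS (CCGGAA, in 17.2% of windows), the E-box CACGTG (7.26%), and the CArG box (1.29%) and NF-kappaB site (5.91%), of which only 1 ETS match, in AREG at -236, was found in these 4 windows and is not in capitals. The promoters thus shared none of the 9 motifs among all 4 genes. A match is a run of letters and not a measured binding site.

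HBEGF, heparin-binding EGF-like growth factor, was higher than in siControl in all 3 knockdowns, 2.98-fold in siSLC25A1, 3.63-fold in siACLY and 1.40-fold in siACO1. Its level was 14.2, 12.7 and 14.8 CPM in the 3 siControl libraries, 41.0, 41.5 and 41.7 CPM in siSLC25A1, 47.7, 53.6 and 50.6 CPM in siACLY and 17.6, 20.3 and 20.3 CPM in siACO1. The ranges of the 4 groups did not overlap, and siACO1 lay nearest the controls. These levels rest on 415 to 510 counts per library in siControl and 1313 to 2120 in siACLY. In bulk RNA, a higher level per cell and more cells with the transcript cannot be told apart.

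The SEs and intervals given here for HBEGF come from the fit over all 12 libraries. Its estimate of the spread between replicates draws on all 4 groups and on other genes. The SEs and intervals make no allowance for the choice of HBEGF by its rise and are not read as tests. The log2 fold change of HBEGF against siControl was 1.57 (SE 0.07, 95% interval 1.44 to 1.71, 2.98-fold) in siSLC25A1. In siACLY it was 1.86 (SE 0.07, 95% interval 1.73 to 2.00, 3.63-fold). In siACO1 it was 0.49 (SE 0.07, 95% interval 0.34 to 0.63, 1.40-fold), and 0.45 without siACO1 replicate 3. Between knockdowns, siSLC25A1 was 0.29 below siACLY on the log2 scale (difference -0.29, 95% interval -0.41 to -0.16), and it was above siACO1 by 1.09 (1.12 without siACO1 replicate 3). These changes show why HBEGF was singled out: among the 9968 genes averaging 5 CPM or more it ranked 3 from the top in siSLC25A1, just under ADAMTS4 (1.86) and just above DUSP5 (1.50), and 6 from the top in siACLY, between ROBO4 (2.00) and PACSIN1 (1.74). In siACO1 it ranked 383. Among all 16197 tested genes, which include many of low counts, it ranked 36, 85 and 1840.

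**Figure D1:**
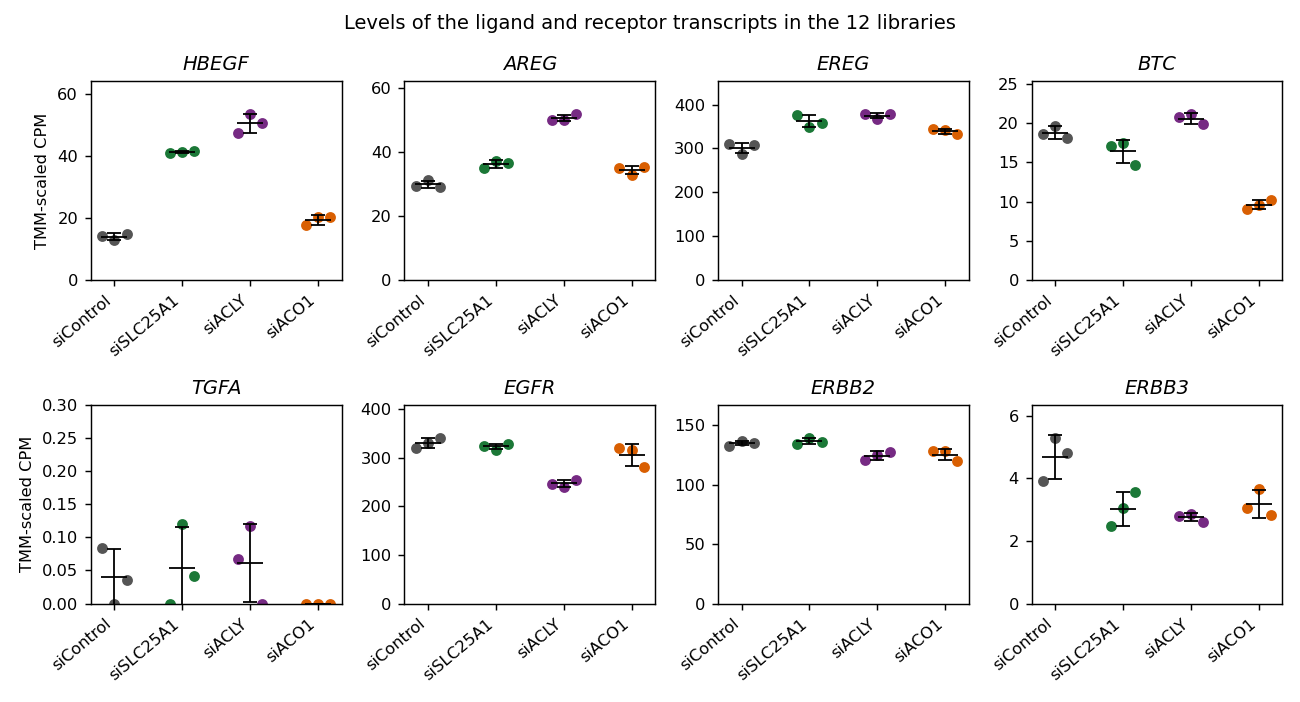
TMM-scaled CPM (vertical axes, linear from 0) of the 8 transcripts in the 4 groups. Points are the 3 libraries of a group in replicate order, horizontal lines the mean and bars the SD, cut at 0 for TGFA. HBEGF sits between 12.7 and 14.8 CPM in siControl and at 41.0 CPM or more in siSLC25A1 and siACLY, BTC is lowest in siACO1 and EGFR in siACLY.

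Among the 6 other genes with enough counts to be tested, 3 passed the test in siSLC25A1 (edgeR quasi-likelihood test, adjusted p under 0.05), where 19.6% of all 16197 tested genes did. In siACLY 5 of 6 passed, against 36.7% of all tested genes. In siACO1 6 of 6 passed, against 37.1%, but 4 of 6 without siACO1 replicate 3 and 3 of 6 without siControl replicate 2. The 3 comparisons share the same control libraries. AREG and EREG were the 2 that rose in each, and ERBB3 fell in each. Taken singly, siSLC25A1, siACLY and siACO1 had 10.3%, 18.4% and 17.8% of all tested genes higher and 9.27%, 18.3% and 19.3% lower. The share of all tested genes that rose, or fell, in all 3 was not computed, so these shared directions are a description. In siACO1 the split of 2 higher and 4 lower became 2 and 2 when library totals were used without scaling factors, since EGFR and ERBB2 then missed the threshold.

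AREG encodes amphiregulin, a low-affinity EGFR ligand. Its transcript stood at 29.4, 31.2 and 29.1 CPM in siControl, 34.9, 37.3 and 36.7 in siSLC25A1, 50.1, 50.1 and 51.9 in siACLY, and 35.0, 32.9 and 35.4 in siACO1. All 9 knockdown libraries lay above the 3 controls, and the siACLY libraries lay above all the rest. AREG rose by 0.76 on the log2 scale in siACLY (SE 0.05, adjusted p = 6.67e-12). The rise was 0.28 in siSLC25A1 (SE 0.06, adjusted p = 0.000549) and 0.20 in siACO1 (SE 0.06, adjusted p = 0.00494; 0.18 without siACO1 replicate 3, adjusted p = 0.0176). Set against siACLY directly, siSLC25A1 was lower by 0.48 (log2 difference -0.48, adjusted p = 5.93e-08), and siACLY exceeded siACO1 by 0.56 (adjusted p = 1.65e-09). Between siSLC25A1 and siACO1 the difference was 0.08 with an interval of -0.04 to 0.19 (adjusted p = 0.3), and their libraries overlapped. AREG and HBEGF therefore had the same order of groups by mean, with siACLY above siSLC25A1, then siACO1 and then siControl. For AREG the middle pair did not differ beyond their spread. EREG, described next, had this order by mean too.

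EREG encodes epiregulin, which also binds ERBB4, and was the most abundant of the ligand transcripts. It measured 309.7, 288 and 307 CPM in siControl and 377, 350.0 and 359 in siSLC25A1. In siACLY it measured 378, 368 and 378 CPM and in siACO1 344, 341 and 333. Every knockdown library was above every control, but by a smaller factor than for HBEGF. EREG rose by 0.26 in siSLC25A1 (SE 0.04, adjusted p = 1.53e-05), 0.31 in siACLY (SE 0.04, adjusted p = 3.43e-07) and 0.17 in siACO1 (SE 0.04, adjusted p = 0.0011; 0.18 without siACO1 replicate 3). The knockdowns of SLC25A1 and ACLY differed by -0.05 (interval -0.13 to 0.03, adjusted p = 0.357) and overlapped, whereas siACLY was above siACO1 by 0.14 (adjusted p = 0.00472). Between siSLC25A1 and siACO1 the difference of 0.09 missed the threshold (adjusted p = 0.0674) and passed it without siSLC25A1 replicate 2 (0.12, adjusted p = 0.0395).

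BTC encodes betacellulin, a ligand of EGFR and ERBB4, and was lower in siACO1. Its transcript stood at 18.6, 19.7 and 18.2 CPM in siControl, 17.1, 17.5 and 14.7 in siSLC25A1, 20.8, 21.2 and 19.9 in siACLY, and 9.06, 9.52 and 10.2 in siACO1. The siACO1 libraries lay far below the other 9. BTC fell to 51.1% of its control level in siACO1 (log2 fold change -0.97, SE 0.08, adjusted p = 1.52e-10), and to a log2 fold change of -1.02 without siACO1 replicate 3. In siSLC25A1 its log2 fold change was -0.20 (interval -0.35 to -0.04, adjusted p = 0.0767) and in siACLY 0.13 (interval -0.02 to 0.28, adjusted p = 0.188), so neither passed. The direct comparisons set all 3 knockdowns apart: siSLC25A1 was below siACLY by 0.33 (log2 difference -0.33, adjusted p = 0.00154), siSLC25A1 above siACO1 by 0.77 (adjusted p = 1.52e-08), and siACLY above siACO1 by 1.10 (adjusted p = 6.83e-12). Of the 6 epithelial genes checked, the 4 with enough counts to be tested were also lower in siACO1. There 19.3% of all tested genes were lower. KRT8, KRT18, KRT19 and MUC1 had log2 fold changes of -0.83, -0.78, -0.76 and -0.77 (-0.85, -0.81, -0.83 and -0.84 without siACO1 replicate 3). Summed over the 6 genes, with KRT8 and KRT18 making up most of the sum, their level was 3628 to 3763 CPM in siControl and 2078 to 2194 in siACO1. Their part in the fall of BTC was not tested.

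TGFA, transforming growth factor alpha, was close to absent in this line. It had 3, 0 and 1 counts in siControl, 0, 3 and 1 in siSLC25A1, 3, 3 and 0 in siACLY and none in siACO1. A library with 0 counts allows a level of up to 0.0674 to 0.124 CPM, depending on its total (3 counts, counting error only). No comparison of TGFA was detectable at this depth. The other ligands of the family were as sparse. EGF had 0 to 9 counts per library, NRG1 3 to 13, NRG2 0 to 14, NRG3 0 to 2 and NRG4 1 to 7. EPGN, which encodes the EGFR ligand epigen, reached only 1 to 18 counts, and of this list of 7 genes it was the single one tested and did not pass against siControl in any knockdown (adjusted p = 0.344, 0.28 and 0.51).

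**Figure D2:**
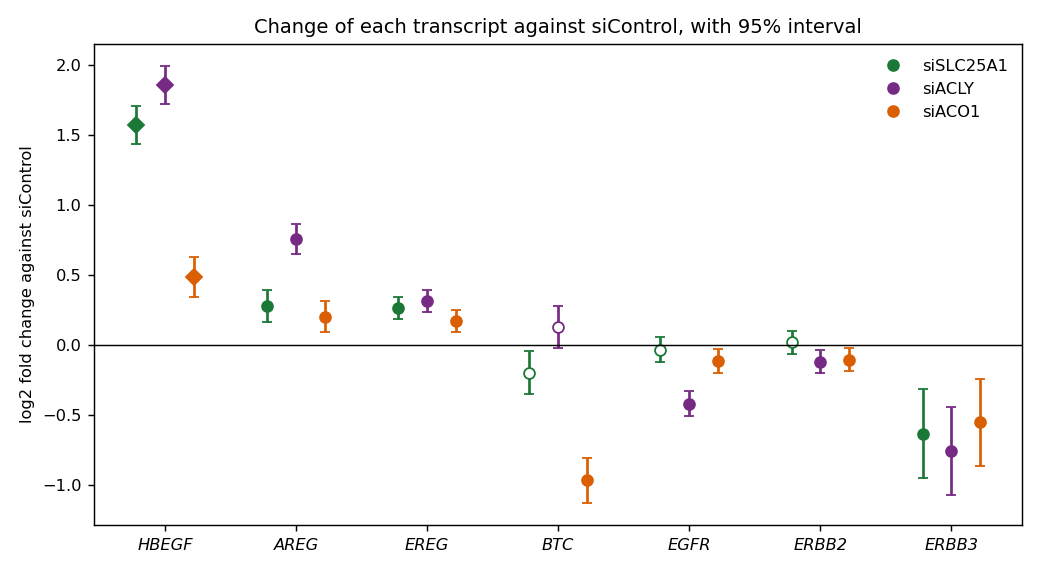
Log2 fold change against siControl (vertical axis) for the 7 transcripts with a fitted value, with 95% intervals from the edgeR fit. Diamonds mark HBEGF, which was not tested, filled circles an adjusted p under 0.05 and open circles the others. The HBEGF intervals make no allowance for its choice by its rise and are not read as tests. AREG and EREG lie above 0 in all 3 knockdowns, ERBB3 below 0 in all 3, and BTC at -0.97 in siACO1.

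To compare levels between genes, CPM were divided by the merged length of all annotated exons of each gene in kilobases (kb). Merged exons can be longer than the transcript expressed here, which lowers the value, so levels of different genes compare only roughly. In siControl the order was EREG (52.7 ± 2.12 CPM per kb, SD, n = 3), EGFR (26.4 ± 0.824), AREG (18.1 ± 0.699), ERBB2 (13.1 ± 0.189), BTC (6.69 ± 0.281), HBEGF (4.62 ± 0.358), ERBB3 (0.519 ± 0.0766) and TGFA (0.00802 ± 0.00846). Neighbours in that order were separated by more than their SDs. HBEGF thus lay below BTC in the controls but above it elsewhere, at 13.7 ± 0.123 CPM per kb against 5.83 ± 0.532 in siSLC25A1, 16.8 ± 0.987 against 7.32 ± 0.233 in siACLY and 6.43 ± 0.523 against 3.41 ± 0.212 in siACO1. In siSLC25A1 its value per kb of merged exon was near that of ERBB2 (13.2 ± 0.238). All 3 HBEGF values were at or above 13.6 and the ERBB2 values at or below 13.5. The merged lengths were 3018 bases for HBEGF and 10321 for ERBB2, and with a shorter ERBB2 transcript ERBB2 would lie above HBEGF.

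The ligand transcripts were summed per kb over 6 EGFR ligands, namely HBEGF, AREG, EREG, TGFA, BTC and EPGN, without the sparse EGF. The sum amounted to 82.3 ± 1.48 CPM per kb in siControl, 105 ± 1.60 in siSLC25A1, 121 ± 0.873 in siACLY and 90.4 ± 0.474 in siACO1. Because HBEGF was chosen for its difference, the sum is also given without it, at 77.7 ± 1.17, 91.3 ± 1.72, 104 ± 1.15 and 83.9 ± 0.973 CPM per kb in the same order. The 4 groups did not overlap in either sum. HBEGF made up 5.60% of the summed ligand transcripts in siControl, 13.1% in siSLC25A1, 13.9% in siACLY and 7.12% in siACO1. EREG remained the largest share throughout, at 64.0% in siControl and 54.3% in siACLY. BTC went from 8.13% in siControl to 3.78% in siACO1.

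**Figure D3:**
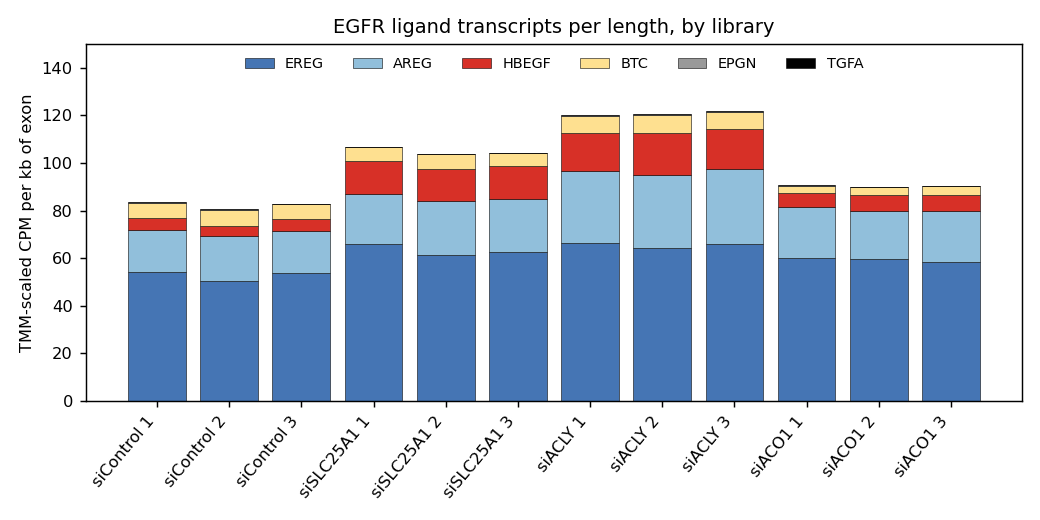
Stacked bars of TMM-scaled CPM per kb of exon (vertical axis, linear from 0) for 6 EGFR ligand transcripts, EGF left out. There is 1 bar for each of the 12 libraries. EREG makes up most of each bar, and the HBEGF segment is widest in siACLY, where it is 13.9% of the sum. EPGN and TGFA are too low to be seen as more than a line.

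EGFR (ENSG00000146648.21, chr7:55019021-55211628, plus strand) encodes the receptor of all these ligands. Its transcript stood at 319.8, 330.1 and 340.5 CPM in siControl, 323, 317 and 328 in siSLC25A1, 246, 240.0 and 255 in siACLY, and 320.1, 316 and 280.1 in siACO1. The siACLY libraries were the lowest of the 12, below siACO1 replicate 3. EGFR fell to 74.8% of its control level in siACLY (log2 fold change -0.42, SE 0.04, adjusted p = 1.64e-08), the knockdown with the highest HBEGF and AREG. In siSLC25A1 its log2 fold change was -0.03 (interval -0.12 to 0.06, adjusted p = 0.683). In siACO1 it was -0.11 (adjusted p = 0.0465), with overlapping libraries, and -0.06 without siACO1 replicate 3 (adjusted p = 0.221), and the call was lost in 9 of 19 other settings. EGFR was lower in siACLY than in both other knockdowns. It was 0.39 higher in siSLC25A1 on the log2 scale (adjusted p = 8.39e-08), and siACLY less siACO1 was -0.31 (adjusted p = 2.10e-06).

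ERBB2 (ENSG00000141736.14, chr17:39687914-39730426, plus strand), the partner receptor without a ligand, varied least. It measured 133, 137 and 135 CPM in siControl, 134, 139 and 136 in siSLC25A1, 120.5, 125 and 128 in siACLY, and 128, 128 and 119 in siACO1. The siACLY and siACO1 libraries were all under the controls, by a narrow margin. ERBB2 had a log2 fold change of -0.12 in siACLY (SE 0.04, adjusted p = 0.0259) and -0.11 in siACO1 (SE 0.04, adjusted p = 0.0449), and of 0.02 in siSLC25A1 (interval -0.06 to 0.10, adjusted p = 0.809). The call in siACLY was lost in 5 of 19 other settings: with library totals (-0.07, adjusted p = 0.188), with no filter on low counts (0.0649), and without siACLY replicate 1 (0.114), siControl replicate 2 (0.0828) or siControl replicate 3 (0.0551). That in siACO1 was lost in 9 of 19, among them library totals (-0.06, adjusted p = 0.324) and the fits without siControl replicate 1, 2 or 3 (0.0623, 0.123 and 0.0932), siACLY replicate 2 (0.0505) or siACO1 replicate 3 (-0.08, adjusted p = 0.128).

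ERBB3 (ENSG00000065361.17, chr12:56076799-56103505, plus strand), the neuregulin receptor with a weak kinase, was scarce and lower in every knockdown. Its level was 3.94, 5.30 and 4.82 CPM in siControl, 2.48, 3.06 and 3.56 in siSLC25A1, 2.79, 2.87 and 2.62 in siACLY, and 3.06, 3.67 and 2.83 in siACO1, from 68 to 191 counts per library. None of the 9 knockdown libraries reached the lowest control. ERBB3 fell by 0.63 in siSLC25A1 (SE 0.16, adjusted p = 0.00528), by 0.76 in siACLY (SE 0.16, adjusted p = 0.000376) and by 0.55 in siACO1 (SE 0.16, adjusted p = 0.00644) on the log2 scale. The call in siSLC25A1 missed the threshold without siSLC25A1 replicate 1 (-0.50, adjusted p = 0.051) and that in siACO1 without siControl replicate 2 (-0.45, adjusted p = 0.0542), while without siACO1 replicate 3 it was -0.47 (adjusted p = 0.0297). Among the epithelial genes MUC1 also fell in all 3, with log2 fold changes of -0.51, -0.98 and -0.77, but KRT19 rose in siSLC25A1 and siACLY (0.45 and 0.67). KRT8 and KRT18 fell in siSLC25A1 (-0.18 and -0.20, adjusted p = 0.00179 and 0.000495). In siACLY they did not pass (0.08 and -0.01, adjusted p = 0.112 and 0.873). KRT8 passed there with library totals (0.13, adjusted p = 0.0062) and without siACO1 replicate 3 (0.08, adjusted p = 0.0476). The summed level of the 6 epithelial genes was 3141 to 3465 CPM in siSLC25A1 and 3833 to 3933 in siACLY, against 3628 to 3763 in siControl, and their part in the fall of ERBB3 was not tested. No difference between 2 knockdowns passed for ERBB3. The intervals were -0.21 to 0.47 for siSLC25A1 less siACLY, -0.42 to 0.26 for siSLC25A1 less siACO1 and -0.54 to 0.13 for siACLY less siACO1. ERBB4, the other receptor of the family, had 0 to 3 counts per library.

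Between knockdowns, 4 of the 6 tested genes passed for siSLC25A1 against siACLY (33.8% of all tested genes did), namely AREG, BTC, EGFR and ERBB2. For siSLC25A1 against siACO1 2 of 6 passed, BTC and ERBB2, against 42.1% of all tested genes, and 1 of 6, BTC, without siACO1 replicate 3. For siACLY against siACO1 4 of 6 passed, AREG, EREG, BTC and EGFR, again against 42.1%. ERBB2 differed by 0.14 between siSLC25A1 and siACLY (adjusted p = 0.0118; 0.0639 without siACLY replicate 1) and by 0.13 between siSLC25A1 and siACO1 (adjusted p = 0.017; 0.0523 without siACO1 replicate 3 and 0.0611 without siSLC25A1 replicate 2). Without siACO1 replicate 3, siSLC25A1 exceeded siACO1 by 0.82 for BTC, and siACLY less siACO1 was 0.58 for AREG, 0.13 for EREG, 1.15 for BTC and -0.37 for EGFR, all of them still past the threshold.

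The ends of the transcripts differed in ATTTA, the core of the elements that mark many short-lived transcripts. In GENCODE release 29 the AREG 3′ untranslated region held 4 ATTTA in 269 bases, or 14.9 per kb, a density reached by 0.112% of 16891 genes with at least 200 bases of such sequence, whose median was 1.71 per kb. That region is short, and by number alone 33.8% of 19124 genes held as many ATTTA as AREG or more. BTC held 12 (6.26 per kb, a density reached by 4.13% of genes), EREG 20 (5.07 per kb, 7.57%), TGFA 13 (3.63 per kb, 18.8%) and HBEGF 5 in 1456 bases (3.43 per kb, 21.2%). The receptors held fewer per length, with 1.50 per kb in EGFR, 1.38 in ERBB3 and none in ERBB2. All 5 ligands exceeded all 3 receptors in density. Each gene was read from its protein-coding transcript with the longest 3′ untranslated region, which need not be the one expressed here. The stability of these transcripts was not measured.

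By pattern over the 12 libraries, the genes nearest to HBEGF were DUSP5, IFIT3, NRIP3, TXNIP and AMPD3. Likeness was the root-mean-square difference of log2 CPM, centred on each gene's mean, among 9911 other genes with a symbol and a mean of 5 CPM or more, and it was 0.29 for DUSP5, 0.29 for IFIT3, 0.30 for NRIP3, 0.34 for TXNIP and 0.34 for AMPD3. DUSP5, which encodes a nuclear phosphatase of ERK, went from 9.01 ± 0.837 CPM in siControl to 25.4 ± 0.812 in siSLC25A1, 19.9 ± 1.10 in siACLY and 10.8 ± 0.685 in siACO1. IFIT3, an interferon-induced gene, stood at 5.06 ± 0.423, 12.0 ± 1.28, 12.1 ± 0.478 and 4.42 ± 0.333 CPM in the same order. Its siACO1 libraries (4.13 to 4.78 CPM) overlapped its controls (4.58 to 5.33 CPM), unlike those of HBEGF. TXNIP, an arrestin-like inhibitor of thioredoxin, stood at 12.8 ± 1.47, 35.2 ± 1.61, 35.7 ± 0.990 and 25.3 ± 2.09 CPM. NRIP3 ranged from 31.6 ± 0.745 CPM in siControl to 68.2 ± 1.52 in siSLC25A1, and AMPD3, an AMP deaminase, from 6.39 ± 0.687 in siControl to 14.8 ± 1.27 in siACLY. The other members were less like HBEGF: AREG ranked 151 (0.55), EREG 689 (0.66), BTC 2489 (0.73), ERBB2 5016 (0.78) and EGFR 8743 (0.89). These genes were picked for their likeness to HBEGF, so their values are a description.

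**Figure D4:**
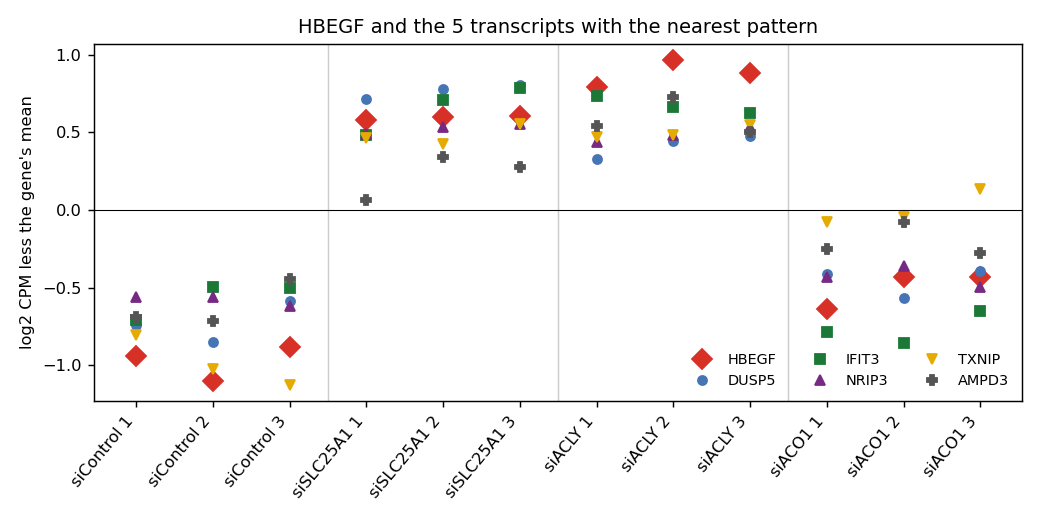
Log2 CPM of HBEGF (diamonds) and of the 5 transcripts with the nearest pattern, each less its own mean over the 12 libraries (vertical axis), by library. All 6 lie below their mean in siControl and above it in siSLC25A1 and siACLY. In siACO1 TXNIP is at or near its mean and the others lie below theirs.

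The rest of the pathway was read from 4 lists with 57 genes, of which 46 were tested. In siSLC25A1 18 of 46 passed, 14 higher and 4 lower (39.1%, against 19.6% of all tested genes). In siACLY 18 of 46 passed, 7 higher and 11 lower (39.1%, against 36.7%), a split that became 11 higher and 7 lower with library totals. In siACO1 21 of 46 passed, 9 higher and 12 lower (45.7%, against 37.1%), and 20 without siACO1 replicate 3 (9 higher and 11 lower). With library totals the siACO1 split became 12 higher and 11 lower. The changes were small. Over the 46 genes the absolute log2 fold change had a median of 0.125, 0.12 and 0.142 in siSLC25A1, siACLY and siACO1. Over all tested genes it was 0.15, 0.204 and 0.209, but these include many genes of low counts and are not a like set. With at least 10 counts required in every library, 43 list genes were tested. Of these 14 rose and 4 fell in siSLC25A1, 8 and 10 did in siACLY, and 9 and 12 in siACO1. Among all genes so kept 23.9%, 42.2% and 43.2% passed in the same order.

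Ligand processing and presentation had 9 tested genes of 11. In siSLC25A1 3 rose and 1 fell, in siACLY 2 rose and 3 fell, and in siACO1 1 rose and 2 fell, or 4 and 2 with library totals. Of all tested genes 10.3% rose and 9.27% fell in siSLC25A1, 18.4% and 18.3% in siACLY, and 17.8% and 19.3% in siACO1. ADAM17, the main sheddase of AREG, EREG and HBEGF, rose in siACLY from 60.1 ± 0.279 to 73.3 ± 3.48 CPM (log2 fold change 0.28, adjusted p = 2.17e-05), and its log2 fold change was 0.08 in siSLC25A1 (adjusted p = 0.282) and 0.09 in siACO1 (adjusted p = 0.132), where it passed with library totals (0.14, adjusted p = 0.0222) but not without siACO1 replicate 3 (0.10, adjusted p = 0.0938). RHBDF2, an inactive rhomboid that escorts ADAM17 to the cell surface, fell from 47.8 ± 1.09 CPM to 37.1 ± 1.59 in siSLC25A1 (-0.36, adjusted p = 8.46e-06) and to 31.6 ± 0.824 in siACO1 (-0.59, adjusted p = 5.58e-10, and -0.59 without siACO1 replicate 3), and stood at 48.7 ± 1.50 in siACLY (adjusted p = 0.692). CD9, a tetraspanin that associates with membrane-bound HBEGF, fell in siACO1 from 171 ± 4.18 to 131 ± 16.9 CPM (-0.39, adjusted p = 1.94e-05; -0.50 without siACO1 replicate 3). It rose in siSLC25A1 by 0.21 (adjusted p = 0.0136), a call lost without siControl replicate 3, siSLC25A1 replicate 1 or siSLC25A1 replicate 2 (adjusted p = 0.063, 0.059 and 0.0525).

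Receptor inhibitors and degradation had 13 tested genes of 15. In siSLC25A1 3 rose and none fell, where 10.3% and 9.27% of all tested genes did, and in siACLY 3 rose and 1 fell, or 3 and 0 with library totals, against 18.4% and 18.3%. In siACO1 none rose and 7 fell, against 17.8% and 19.3% of all tested genes. Without siACO1 replicate 3 1 rose and 6 fell, and with library totals none rose and 6 fell. The list's median log2 fold change was 0.09, 0.03 and -0.22 in siSLC25A1, siACLY and siACO1, against -0.00, 0.01 and 0.01 over all tested genes, and it was -0.16 in siACO1 without siACO1 replicate 3. The 7 that fell were ERRFI1, LRIG1, SOCS5, RNF41, SH3KBP1, USP8 and HGS, of which SOCS5, RNF41, USP8 and HGS are named here after their values were seen, and 23.5% of the exon bases of HGS overlap another gene.

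ERRFI1 encodes MIG6, which binds and inhibits EGFR and is itself induced by the cascade. It stood at 764.5 ± 19.6 CPM in siControl, 1011 ± 12.1 in siSLC25A1, 1081 ± 23.6 in siACLY and 577 ± 13.4 in siACO1, and no 2 groups overlapped. It rose by 0.40 in siSLC25A1 (adjusted p = 3.20e-09) and by 0.50 in siACLY (adjusted p = 1.68e-11), and fell by 0.41 in siACO1 (adjusted p = 9.23e-10), or by 0.43 without siACO1 replicate 3. ERRFI1 and HBEGF thus lay on opposite sides of siControl in siACO1 and on the same side in the other knockdowns. SH3KBP1, an adaptor of receptor endocytosis, had the same signs, with 0.18, 0.29 and -0.15 (adjusted p = 0.0036, 6.63e-06 and 0.00806), the last with an adjusted p of 0.0684 under library totals (log2 fold change -0.10) and -0.16 without siACO1 replicate 3. LRIG1, a membrane inhibitor of ERBB receptors, fell in siACO1 from 2.05 ± 0.586 to 1.27 ± 0.286 CPM (-0.67, adjusted p = 0.0266), with overlapping libraries and a call that was lost without siControl replicate 1, siControl replicate 3 or siACO1 replicate 3 (adjusted p = 0.0826, 0.162 and 0.126), the last with a log2 fold change of -0.50.

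Adaptors and the kinase cascade had 23 tested genes of 24. In siSLC25A1 8 rose and 3 fell, in siACLY 2 rose and 7 fell, or 5 and 4 with library totals, and in siACO1 8 rose and 3 fell, or 7 and 3 without siACO1 replicate 3. The shares of all tested genes that rose and fell were 10.3% and 9.27%, 18.4% and 18.3%, and 17.8% and 19.3% in the same order. MAP2K2, which encodes the kinase MEK2, fell in all 3, from 578 ± 23.3 CPM to 465 ± 29.1 in siSLC25A1 (-0.31, adjusted p = 2.97e-05), 422 ± 16.5 in siACLY (-0.45, adjusted p = 3.66e-08) and 398 ± 26.7 in siACO1 (-0.54, adjusted p = 1.52e-09; -0.60 without siACO1 replicate 3). MAPK3, which encodes ERK1, fell in siSLC25A1 (-0.27, adjusted p = 0.000178) and rose in siACO1 (0.34, adjusted p = 1.31e-06; 0.31 without siACO1 replicate 3), and in siACLY its log2 fold change was 0.10 (adjusted p = 0.108). PIK3R1, a regulatory subunit of phosphatidylinositol 3-kinase, had 3.50 ± 0.394 CPM in siControl and 2.50 ± 0.495 in siSLC25A1 (-0.48, adjusted p = 0.0489), a call that was lost in 13 of 19 other settings. ADAM12, TIMP3, LRIG3 and CBLC had at most 1 count per library and HRAS 0 to 6, so these list members were not tested. HRAS is expressed in most human cells and the counting rules are not given in the sources used here, so its counts are not read as its level in these cells.

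**Figure D5:**
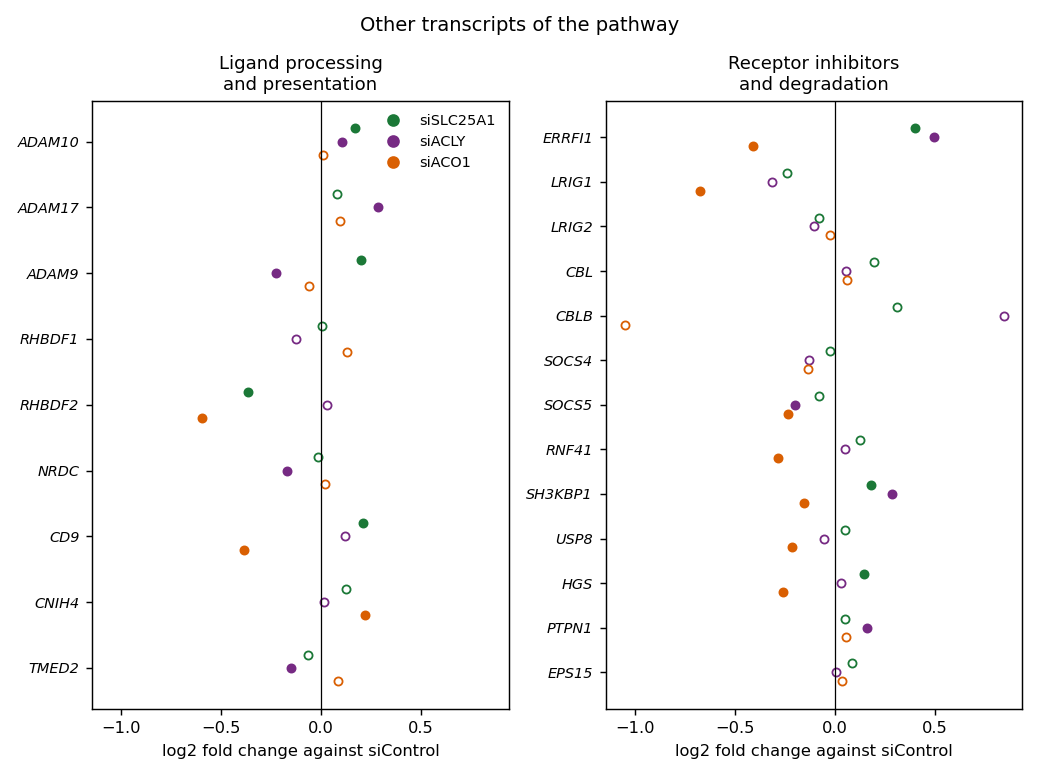
Log2 fold change against siControl (horizontal axes) of the tested genes in the lists of ligand processing and of receptor inhibitors, by knockdown. Filled circles have an adjusted p under 0.05 in the edgeR fit and open circles do not. In the list of receptor inhibitors and degradation, which are not all inhibitors, the filled siACO1 points all lie below 0. ERRFI1 lies at 0.40, 0.50 and -0.41.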

How the data were processed

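RNA of 12 MiaPaCa-2 libraries was counted per gene by the authors, who deposited 1 table of raw counts, whole numbers that were not normalized, per the file headers. The submitters' processing notes name CASAVA, Trim Galore, FastQC, STAR 2.7.0e, DESeq2 and the builds GRCh38 and GRCm39 without their roles. The gene identifiers are human, and the counting tool, annotation release and strand setting are not given in the sources used here. Gene symbols came from a table that matched 62700 of 70116 identifiers (89.4%). Promoter windows were found for 7 of the 8 genes.

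Genes were kept by edgeR's filterByExpr at default settings (16197 genes), scaled by TMM and fitted with edgeR 4.0.16 in R 4.3.3 by a robust quasi-likelihood model of the 4 groups over all 12 libraries, without a block, with 8 residual degrees of freedom. Groups were taken from the sample titles. Tests were two-sided, with Benjamini-Hochberg adjustment over all tested genes and a threshold of 0.05. SEs were derived from the F statistic. CPM per kb used merged exons of GENCODE release 29, which may differ from the annotation behind the counts. Counts are relative to each library, so a change in total RNA per cell would not be seen. Of the members none shared over 5.16% of its stretches of 31 bases with transcripts of other genes or over 7.41% of its exon bases with another gene. The script was tested on simulated data.

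The members, lists, markers and the rule for named genes were chosen with earlier results of these data known. The rule names the members, the targets, the 3 called genes with the largest change against siControl in each list, every other ligand and ERBB4, and the 5 genes nearest HBEGF in pattern. Each result was recomputed with library totals, with median-of-ratios factors, the DESeq2 1.42.0 Wald test, no filter, at least 10 counts in every library, only the 2 groups compared, a replicate block and leaving out each library in turn. One gene of the adaptor and kinase list is counted with its list but is not reported here by name.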

Additional observations from a re-analysis of the deposited data

How the results depend on the processing

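Of the 36 tested comparisons of a ligand or receptor gene, 26 kept their direction and their side of the threshold under all 19 alternatives. HBEGF ranged over them from 1.51 to 1.62 in siSLC25A1, 1.80 to 1.91 in siACLY and 0.42 to 0.55 in siACO1, log2 against siControl. The number of genes called in siACO1 against siControl ranged from 3 to 6 when single libraries were left out, with 3 without siControl replicate 2. For siSLC25A1 against siACO1 it ranged from 1 to 2 when single libraries were left out, and was 1 with library totals, without a filter on low counts and with only the 2 groups compared. Differences near 0 changed sign. RHBDF2 in siACLY was -0.0038 without siACLY replicate 1 (range 0.046 to -0.0038 without single libraries). PIK3R1 in siACO1 was 0.030 with library totals, 0.048 without siControl replicate 3 and 0.030 without siACO1 replicate 1 (range -0.11 to 0.048). For siSLC25A1 against siACO1, ERBB3 was 0.054 without siSLC25A1 replicate 1 and 0.040 without siACO1 replicate 2 (range -0.21 to 0.054). For siACLY against siACO1, ERBB2 was 0.0082 without siACLY replicate 1 and 0.0044 without siACO1 replicate 2 (range -0.048 to 0.0082). The cause of these shifts was not tested. With the replicate block, EGFR in siACO1 had an adjusted p of 0.0527 (log2 fold change -0.11), and 5 of the 6 tested genes were called there. It changed no other call of a ligand or receptor gene. Same-numbered libraries deviated together with r over 0.1 in 5 of 18 pairs (range -0.108 to 0.234). With 3 numbers to match, 11 of 18 correlated best with their own number. The labels state no pairing, so the main fit held no block. A link between same-numbered libraries was not tested. At the counts of ERBB3 (68 to 191 per library) the SE was 0.16, against 0.04 for EGFR.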

Other observations

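AREG, EREG and BTC lie beside the CXC chemokine genes on chromosome 4, and the 9 other tested protein-coding genes within 1 Mb of the AREG start were examined after the values of the ligands had been seen. In siSLC25A1 2 of the 9 rose and none fell (19.6% of all tested genes passed). In siACLY 4 rose and 1 fell (36.7%). With library totals 4 rose and 0 fell there, since CXCL3 missed the threshold (-0.46, adjusted p = 0.0744, against -0.50, adjusted p = 0.04845). In siACO1 5 rose and 1 fell (37.1%), or 6 and 1 with library totals. Without siACO1 replicate 3, which stands apart from its group, 4 rose and 1 fell. CXCL3 then missed the threshold in siACO1 (0.40, adjusted p = 0.126, against 0.48, adjusted p = 0.0395). CXCL8, which encodes the neutrophil attractant interleukin-8, rose from 108 CPM in siControl to 237 in siSLC25A1 (log2 fold change 1.13, SE 0.04, edgeR adjusted p = 3.70e-18) and to 199.7 in siACLY (0.89, SE 0.04, adjusted p = 7.43e-16), and stood at 113 in siACO1 (0.07, adjusted p = 0.196; 0.06 without siACO1 replicate 3, and 0.12, adjusted p = 0.0222, with library totals). CXCL1 rose in all 3, by 0.26, 0.30 and 0.48 (adjusted p = 0.000582, 3.64e-05 and 1.99e-08), the last being 0.43 without siACO1 replicate 3. CXCL5 rose in siACO1 by 0.44 (adjusted p = 1.94e-07, and 0.42 without siACO1 replicate 3), and its log2 fold change was 0.07 in siSLC25A1 and 0.08 in siACLY (adjusted p = 0.415 and 0.274). CXCL6, at only 1.09 CPM in siControl, rose in siACO1 by 1.73 (adjusted p = 6.8e-08, and 1.81 without siACO1 replicate 3). It rose in siACLY by 0.72 (adjusted p = 0.00969) and did not pass in siSLC25A1 (-0.20, adjusted p = 0.646). PARM1, beyond BTC's neighbours on the other side of AREG, rose in siACLY by 1.37 (adjusted p = 9.17e-09) and fell in siACO1 by 0.81 (adjusted p = 0.000414; -0.73 without siACO1 replicate 3). Genes of this stretch thus differed in sign within 1 knockdown, and in siACO1 AREG and EREG rose while BTC and PARM1 fell.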
